A study of Mus musculus with 15 samples.

Results

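Chemokines are small secreted proteins that draw leukocytes along a gradient by binding G protein-coupled receptors. Activated T helper cells release several of them within hours of engagement of the T cell receptor (TCR). The 6 genes described here, Xcl1, Ccl1, Ccl3, Ccl4, Ccl5 and Ccl9, encode such ligands. Xcl1 (lymphotactin) acts on dendritic cells that carry the receptor Xcr1, and Ccl1 (TCA-3) acts on Ccr8. Ccl3, Ccl5 (RANTES) and Ccl9 act on Ccr1, and Ccl3 and Ccl4 are the macrophage inflammatory proteins 1 alpha and 1 beta. The members were taken by name: every probe set on the 3 chip types whose platform annotation gives exactly 1 gene symbol equal to a member. This found 7 probe sets for the 6 genes, of 36701 probe sets and 15964 genes in all. All 7 lie on chip type A, and 0 on types B and C, so no member was read on a second chip type.

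The RNA came from A.E7 T cells, a mouse CD4 T helper clone, in 5 treatments: mock, anti-TCR alone, and anti-TCR with 1 of 3 inhibitor treatments. The titles of the anti-TCR arrays read Anergic. The inhibitors were CSA, read here as cyclosporin A, which blocks the phosphatase calcineurin; an unnamed protein kinase C inhibitor (PKCi); and Combo, a mix of rapamycin, PD98059 and SB203580, which block mTOR, MEK and p38. The labels give no doses. Every sample is a pool of RNA from 2, 4 and 6 h, and all come from the same clone. Each treatment has 1 array per chip type, so no value has a replicate and no difference could be tested. Precision is limited by this number of arrays.

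Values are linear array intensities scaled by the authors. The floor is the median intensity over the 5 arrays of a chip type, 51.1 on type A; dimmer values were set to it before any log2 ratio was formed. A gene counts as measured in a comparison where the brighter value reached 4 times the floor (204 on type A), and as risen or fallen where the ratio is then at least 2-fold. A fold is given as "at least" when its lower value did not exceed the floor. In place of a replicate error, a technical SD of the log2 ratio was computed from genes read by probe sets on more than 1 chip type. It was 0.76 for anti-TCR alone over mock (848 pairs), 0.48 for CSA, 0.71 for PKCi and 0.55 for Combo over anti-TCR alone, and it covers arrays and probes but not cultures.

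Across the series, between 17.4% and 23.0% of the probe sets of an array reached 4 times the floor. Of 9 T helper cell markers on the arrays 8 were measured, Cd4 between 598 and 880. The exception was Cd5, below the floor in all 5 treatments (5.5 to 12.1). Some member genes are also made by macrophages, CD8 T cells and NK cells. Of 14 markers of macrophages and dendritic cells, Ctss and Cd14 (2 genes) were measured, and 9 lay below the floor in every treatment, among them Adgre1, Lyz2 and Tyrobp. The summed intensity of these 14 was 2142 with mock, 1066 with anti-TCR alone, 1339 with CSA, 1249 with PKCi and 837 with Combo, highest with mock. Ctss carried this order: the other 13 summed to 559, 550, 620, 446 and 381. Of 9 CD8 T and NK cell markers 4 were measured, all killer lectin receptor genes, while Cd8a (2.6 to 7.5), Cd8b1 and Ncr1 lay below the floor throughout. Their sum was 7785, 4015, 5632, 4439 and 3681 in the same order of treatments. From mock to anti-TCR alone, Klrd1, Klrk1, Klre1 and Ctss fell and Klrc1 did not (1333 to 1453). The T helper cell markers Cd3g (2570 to 1276) and Cd3d (1050 to 511) fell too, and Cd2 fell with CSA over anti-TCR alone (1537 to 440.0). The part of these markers in the results was not tested. Of 9 B cell markers 0 were measured. In bulk RNA, fewer cells that express a gene and less RNA per cell cannot be told apart.

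The promoters of the members are shown first, since Xcl1, Ccl1 (unsuffixed probe set) and Ccl9 fell with each inhibitor treatment and Ccl3 did not fall with Combo. The RefSeq promoter table (GRCm38.p6) held 4 of the 6 genes; Ccl4 and Ccl5 are named only. Each line gives the 250 bases before the start on the gene's strand. All 4 genes lie on the minus strand: Xcl1 at chr1:164935523-164935772, Ccl1 at chr11:82179813-82180062, Ccl9 at chr11:83578637-83578886 and Ccl3 at chr11:83649379-83649628. Capitals mark GGAAA, the core that NFAT factors bind, or its reverse complement TTTCC.
Xcl1: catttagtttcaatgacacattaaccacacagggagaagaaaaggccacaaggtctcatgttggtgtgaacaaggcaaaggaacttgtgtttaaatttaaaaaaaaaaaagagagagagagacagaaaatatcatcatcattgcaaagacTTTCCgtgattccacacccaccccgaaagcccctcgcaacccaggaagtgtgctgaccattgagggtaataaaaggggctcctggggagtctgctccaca
Ccl1: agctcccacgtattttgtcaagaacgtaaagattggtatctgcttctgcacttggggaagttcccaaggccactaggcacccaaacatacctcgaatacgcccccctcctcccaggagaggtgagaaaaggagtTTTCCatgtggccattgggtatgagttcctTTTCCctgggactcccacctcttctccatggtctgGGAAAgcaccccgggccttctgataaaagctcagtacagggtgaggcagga
Ccl9: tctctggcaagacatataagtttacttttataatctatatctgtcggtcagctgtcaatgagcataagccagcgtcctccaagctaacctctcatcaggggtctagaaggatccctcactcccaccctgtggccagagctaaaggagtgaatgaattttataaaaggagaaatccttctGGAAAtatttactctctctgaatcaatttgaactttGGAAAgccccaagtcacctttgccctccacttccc
Ccl3: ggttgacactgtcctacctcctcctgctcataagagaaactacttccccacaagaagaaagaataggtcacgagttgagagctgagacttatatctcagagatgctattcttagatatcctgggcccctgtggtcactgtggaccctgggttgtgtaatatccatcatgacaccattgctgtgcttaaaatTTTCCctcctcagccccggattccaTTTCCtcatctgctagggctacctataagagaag

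NFAT factors are the transcription factors that calcineurin activates, hence the choice of their core motif. It occurred 1 time in the Xcl1 window (100 bases before the start, counted to the match's first base), 3 times in Ccl1 (116, 86 and 51), 2 times in Ccl9 (71 and 35) and 2 times in Ccl3 (59 and 34). Of 32851 promoter windows of this length 55.6% hold at least 1 match on either strand, 21.4% at least 2 and 6.39% at least 3, so a match is common. The AP-1 motif TGANTCA (6.75% of windows) occurred only in Ccl9 among the 4, 53 bases before the start. The NF-kB consensus (7.25% of windows) matched in Ccl9, 35 bases before the start and overlapping a GGAAA core, and in Ccl1, on both strands from 196 and 195 bases before it. TATAAA (12.4%) occurred in Ccl9 only, with 3 matches, of which those at 94 and 92 bases overlap. The cyclic AMP element TGACGTCA (1.55%) and the Egr motif GCGNGGGCG (4.70%) matched in 0 of the 4. These are matches of letters in a window, not binding sites.

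With anti-TCR alone, 4 of the 6 chemokine genes rose over mock and 0 fell. Of 5803 genes measured in this comparison 11.4% rose and 13.9% fell. The log2 ratio had a median of 4.06 over all 6 members, against 0.00 over all 15964 genes and -0.08 over the 5803 measured. A gene at or below the floor in both arrays has a ratio of 0 by the rule, which holds the median of all genes near 0. Xcl1, Ccl1 (on the unsuffixed probe set, from which the gene is counted) and Ccl9 reached 4 times the floor in the anti-TCR array only. These 3 could thus enter a comparison with that array only by differing, and their count is a description of the list. In the comparison with mock, Ccl3 and Ccl4 also reached that level in the anti-TCR array only.

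Xcl1 read 9.5 with mock, 2472 with anti-TCR alone, 42.8 with CSA, 36.3 with PKCi and 141 with Combo. Only the anti-TCR array was bright; mock, CSA and PKCi lay below the floor, and Combo above it but short of 4 times the floor. The rise over mock was at least 48.4-fold, and the fall with CSA and with PKCi was to the floor, so the same bound of at least 48.4-fold applies to both. With Combo, Xcl1 was 17.5-fold lower than with anti-TCR alone (log2 ratio -4.13, 7.46 times the technical SD). That was the third lowest ratio among the 5596 measured genes with both values above the floor. The Combo value was 5.72% of the anti-TCR intensity.

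Ccl1, the Ccr8 ligand, followed the same course on its unsuffixed probe set: 12.4 with mock, 1983 with anti-TCR alone, 21.9 with CSA, 30.0 with PKCi and 102 with Combo. Again 1 array was bright and the 3 lowest lay below the floor. The rise and the falls with CSA and PKCi were at least 38.8-fold. Combo lowered it 19.4-fold (log2 ratio -4.28, 7.72 times the technical SD). Ccl1 also has a g-suffixed probe set, whose suffix marks sequence shared with other transcripts, designed from the same transcript record. It read 77.4, 438, 56.3, 72.4 and 686 in the same order. This probe set rose 5.66-fold over mock and fell 7.79-fold with CSA and 6.05-fold with PKCi, as the first did but by less. With Combo the 2 probe sets parted: the g-suffixed set lay 1.56-fold above anti-TCR alone (log2 ratio 0.65, not past the 2-fold limit) and 8.86-fold above mock. Which of the 2 reads Ccl1 in the Combo array was not tested.

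Ccl9, a Ccr1 ligand, was bright in the anti-TCR array only and below the floor in the other 4. It read 12 with mock, 532 with anti-TCR alone, 6.6 with CSA, 22.6 with PKCi and 20.9 with Combo. The rise over mock and each of the 3 falls were at least 10.4-fold (log2 ratio 3.38 in size). Ccl9 was thus the member for which Combo, like CSA and PKCi, left a value below the floor, whereas Xcl1 and Ccl1 (unsuffixed) stayed above it with Combo. Since mock lies below the floor for these 3 probe sets, the share of the log2 induction left with Combo depends on the floor. It was 26.2% for Xcl1, 19.0% for Ccl1 (unsuffixed) and 0.0% for Ccl9. On the g-suffixed Ccl1 probe set, with mock above the floor, it was 125.8%.

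**Figure D1:**
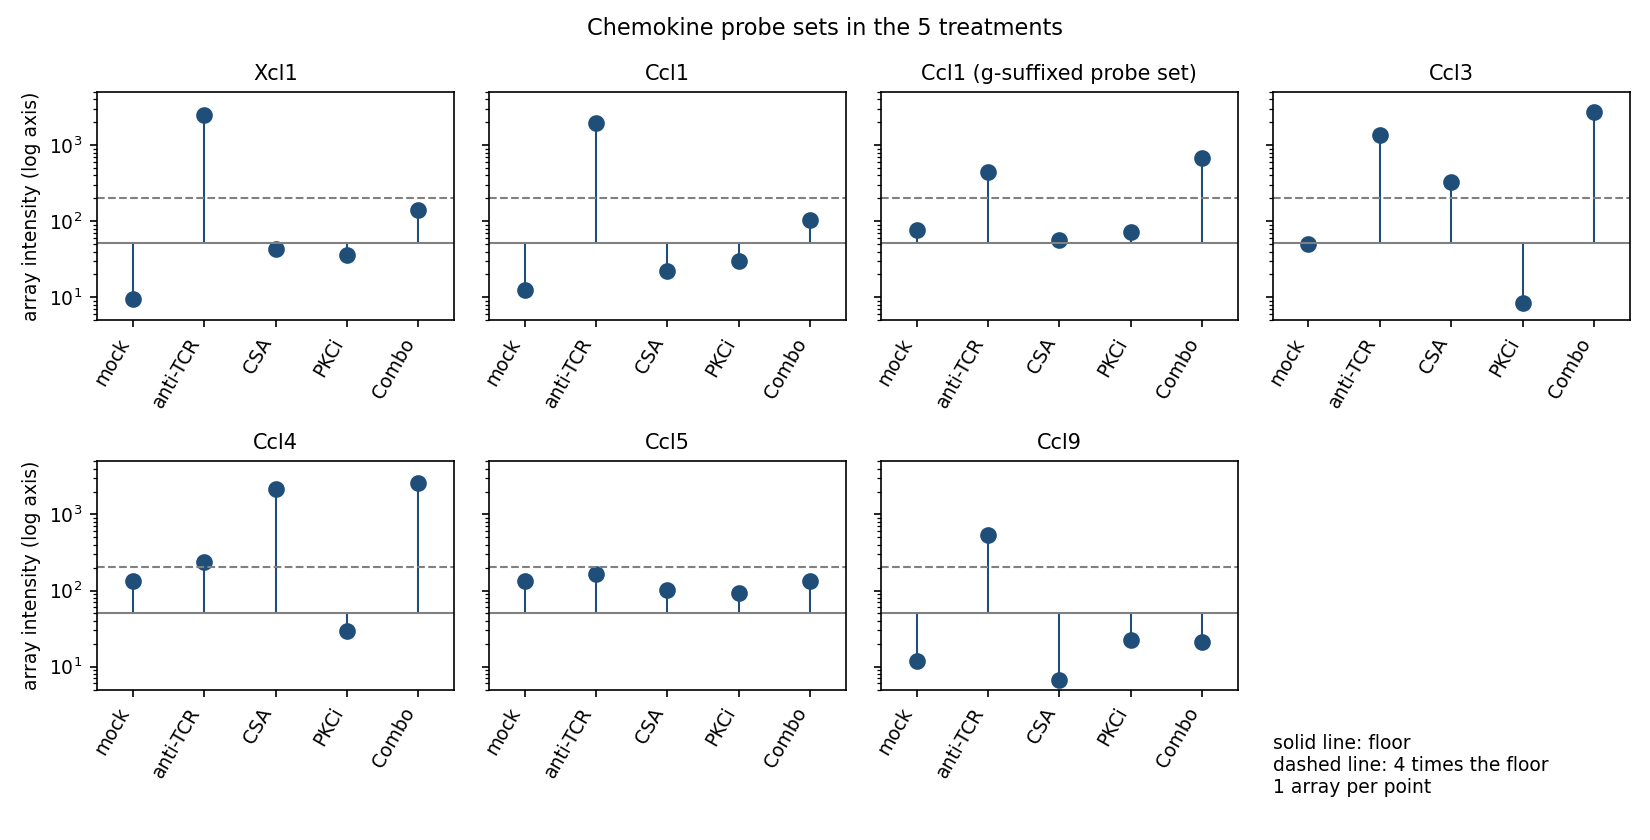
Array intensity (log axis) of the 7 chemokine probe sets on chip type A in the 5 treatments, 1 array per point, with thin lines drawn from the floor (solid line, 51.1) and the level of 4 times the floor dashed (204). Xcl1, the unsuffixed Ccl1 probe set and Ccl9 stand out in the anti-TCR array alone, Ccl3 and the g-suffixed Ccl1 probe set are brightest with Combo, Ccl4 is bright with CSA and Combo, and Ccl5 stays between the lines.

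Ccl3, the macrophage inflammatory protein 1 alpha gene, also rose with anti-TCR but answered the inhibitors differently. It read 50.5 with mock, 1363 with anti-TCR alone, 328 with CSA, 8.4 with PKCi and 2750 with Combo. The arrays were dark with mock and PKCi, intermediate with CSA, and bright with anti-TCR alone and Combo. The rise over mock was at least 26.7-fold. CSA lowered Ccl3 4.16-fold (log2 ratio -2.06, 4.28 times the technical SD), yet CSA still left it at least 6.42-fold above mock, or 56.6% of the log2 induction, a share that depends on the floor. PKCi lowered it at least 26.7-fold. Combo raised it 2.02-fold over anti-TCR alone (log2 ratio 1.01, 1.83 times the technical SD), just past the limit; with the floor added as a pseudocount the log2 ratio was 0.99 and the call was lost.

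Ccl4, the macrophage inflammatory protein 1 beta gene, was the member that anti-TCR alone moved least among those measured. It read 133 with mock, 237 with anti-TCR alone, 2171 with CSA, 29.6 with PKCi and 2571 with Combo. The change over mock was 1.78-fold (log2 ratio 0.83, 1.11 times the technical SD) and did not pass the 2-fold limit. CSA and Combo gave the bright arrays, and PKCi the only value below the floor. CSA raised Ccl4 9.16-fold over anti-TCR alone (log2 ratio 3.20, 6.65 times the technical SD) and Combo 10.9-fold (3.44, 6.22 times). Each was the second highest ratio of its comparison among genes with both values above the floor (5423 with CSA and 5596 with Combo). PKCi lowered Ccl4 at least 4.64-fold.

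Ccl5, which T cells typically express late after activation, did not reach 4 times the floor in any array. Its values were 135 with mock, 167 with anti-TCR alone, 101 with CSA, 92.9 with PKCi and 134 with Combo, all above the floor. It was lowest with PKCi and highest with anti-TCR alone, a span of less than 2-fold, and it entered no count of changed genes. Its log2 ratios were 0.31 over mock with anti-TCR alone, and -0.72, -0.84 and -0.31 over anti-TCR alone with CSA, PKCi and Combo. The times pooled, 2 to 6 h, do not show its level at later times.

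**Figure D2:**
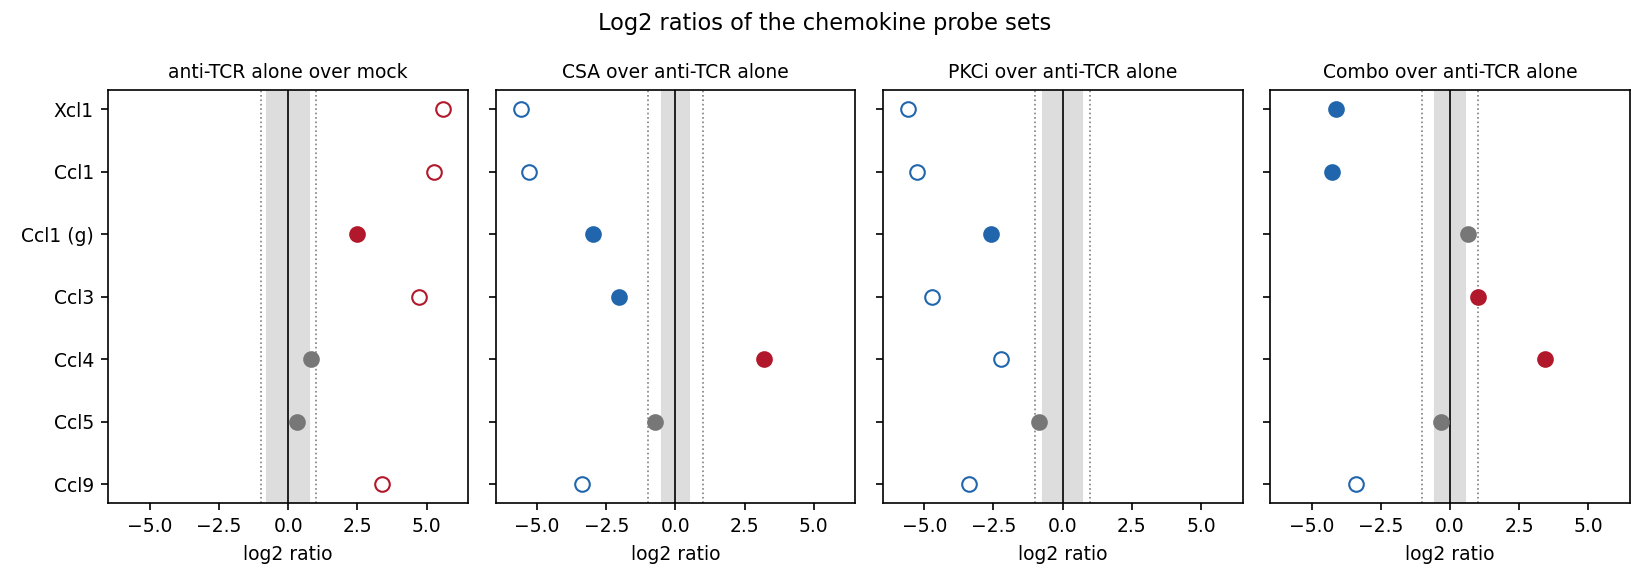
Log2 ratio of each chemokine probe set in 4 comparisons, with the technical SD of each comparison in grey and the 2-fold limits dotted; red points rose, blue points fell, grey points did not pass the size rule or were not measured, and open points are bounds because a value lay at or below the floor. Every measured probe set is on the left with PKCi, while Ccl4 lies to the right with CSA and with Combo.

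By inhibitor, CSA lowered 4 of the 6 genes (Xcl1, Ccl1, Ccl3 and Ccl9) and raised 1 (Ccl4). Of 5453 genes measured in that comparison 5.34% fell and 4.84% rose. The median log2 ratio over the 6 members was -2.72, against 0.00 over all genes and 0.03 over the genes measured. PKCi lowered 5 of the 6 (all but Ccl5) and raised 0, where 9.75% of 5793 genes fell and 14.3% rose. All 5 reached 4 times the floor here in the anti-TCR array only, so this count too is a description of the list. The members' median was -4.06. Combo lowered 3 (Xcl1, Ccl1 and Ccl9) and raised 2 (Ccl3 and Ccl4), where 5.46% of 5621 genes fell and 7.95% rose. Ccl1 is counted there on its unsuffixed probe set, and the g-suffixed one did not fall with Combo. The members' median was -1.85. These 3 comparisons share the anti-TCR array, so a high value there lowers all of them together.

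Comparisons that leave out the anti-TCR array do not share that value. Those over mock share the mock array instead, and those over PKCi share the PKCi array. Over mock, Ccl3 and Ccl4 were the members that rose with CSA, at least 6.42-fold and 16.3-fold, where 8.65% of 5697 genes rose. They also rose with Combo, at least 53.8-fold and 19.4-fold, where 8.39% of 5756 genes rose. With PKCi 0 of the 6 members reached 4 times the floor in either array, and Ccl4 read 29.6 against 133 with mock. Between inhibitor arms, Ccl3 and Ccl4 were higher with CSA than with PKCi, at least 6.42-fold and 42.5-fold (6.49% of 5656 genes were higher). They were higher with Combo than with PKCi at least 53.8-fold and 50.3-fold (4.89% of 5606 genes). In the comparisons over mock and over PKCi, Ccl3 and Ccl4 reached 4 times the floor in the CSA or Combo array only. They could enter these comparisons only by being higher there, so these counts too are a description of the list. Combo and CSA separated these neighbours: Ccl3 was 8.39-fold higher with Combo than with CSA (log2 ratio 3.07, 6.17 times the technical SD of 0.50), while Ccl4 was 1.18-fold higher (0.24, 0.49 times the SD). In that comparison 6.11% of 5600 genes were higher. The g-suffixed Ccl1 probe set, which does not enter the gene counts, was also higher with Combo. It read 8.86-fold above mock, 9.47-fold above PKCi and 12.2-fold above CSA.

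Of the members, 5 belong to 2 groups of chemokine genes on chromosome 11, in the gene order of GRCm38.p6. In the first group (Ccl2, Ccl7, Ccl11, Ccl12, Ccl8, Ccl1), Ccl1 was the only gene to reach the floor in any treatment; the other 5 read between 1.4 and 27.7. In the second (Ccl5, Ccl9, Ccl6, Ccl3, Ccl4), adjacent genes differed: Ccl9 and Ccl3 were bright with anti-TCR alone, and Ccl6, which lies between them, read 46.7 there and 12.6 to 45.1 elsewhere, below the floor. Ccl3 and Ccl4 lie side by side and moved in opposite directions with CSA. A dark probe set may fail to bind its transcript, which was not tested.

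**Figure D3:**
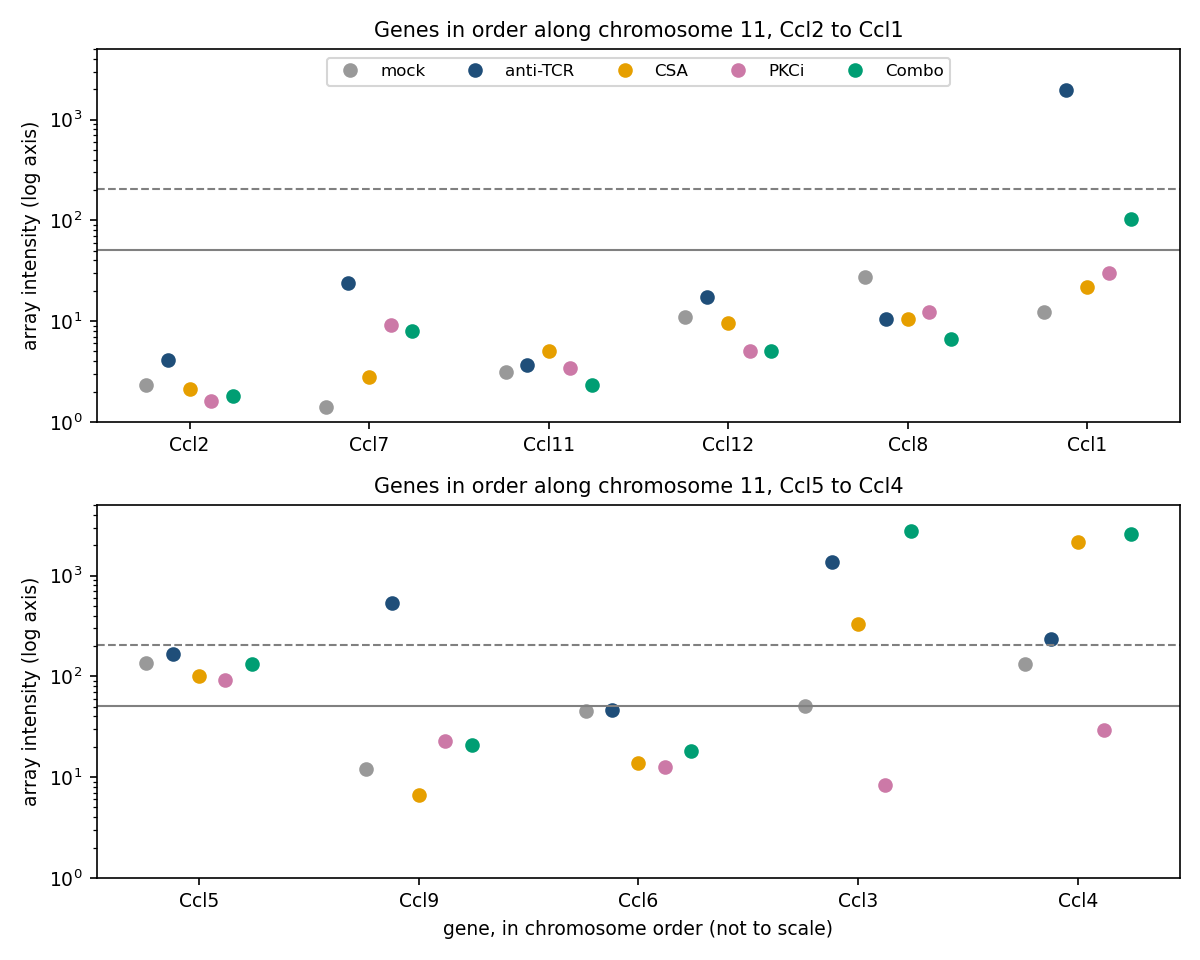
Array intensity (log axis) of the chemokine genes of 2 groups on chromosome 11 in gene order (not to scale), 1 point per treatment, with the floor (solid line) and 4 times the floor (dashed line). Ccl1 stands alone above the floor in the upper panel, and in the lower panel Ccl3 is low with CSA relative to anti-TCR alone where Ccl4 is high.

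The other chemokine ligands were mostly dark. Of 31 listed, 25 had a probe set of their own, 18 of these lay below the floor in all 5 treatments, and 1 was measured, Ccl22. This ligand of Ccr4 read 191 with mock, 292 with anti-TCR alone, 205 with CSA, 187 with PKCi and 166 with Combo. It was highest with anti-TCR alone but changed by less than 2-fold in each of the 4 comparisons. Cxcl16 (162 to 245) and Cxcl12 (129 to 211) lay above the floor and below 4 times the floor.

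Of 3 chemokine receptor genes measured with anti-TCR alone over mock, 0 rose and 1 (Ccr2) fell. Of all 5803 genes measured there 11.4% rose and 13.9% fell, and 3 genes are too few to set against those shares. Of 23 listed receptor genes 19 were on the arrays and 4 reached 4 times the floor in some array. Ccr1, the receptor for Ccl3, Ccl5 and Ccl9, read 205 with mock, 326 with anti-TCR alone, 407 with CSA, 215 with PKCi and 169 with Combo, and did not pass the 2-fold limit in any of the 4 comparisons. Ccr8, the Ccl1 receptor, reached at most 114 (with CSA), and Xcr1, the Xcl1 receptor, lay between 95.7 and 145. Cx3cr1, the receptor of the membrane-bound chemokine Cx3cl1, read 329 with mock, 312 with anti-TCR alone, 467 with CSA, 292 with PKCi and 197 with Combo, and did not pass the limit either. Ccr2, which guides cells to inflamed tissue, read 668 with mock, 131 with anti-TCR alone, 630 with CSA, 216 with PKCi and 86.2 with Combo. It fell 5.11-fold with anti-TCR alone and rose 4.82-fold with CSA over anti-TCR alone. Cxcr4, which retains lymphocytes in bone marrow and lymphoid tissue, read 174, 36.7, 54.4, 208 and 85.8, and was at least 4.06-fold higher with PKCi than with anti-TCR alone.

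**Figure D4:**
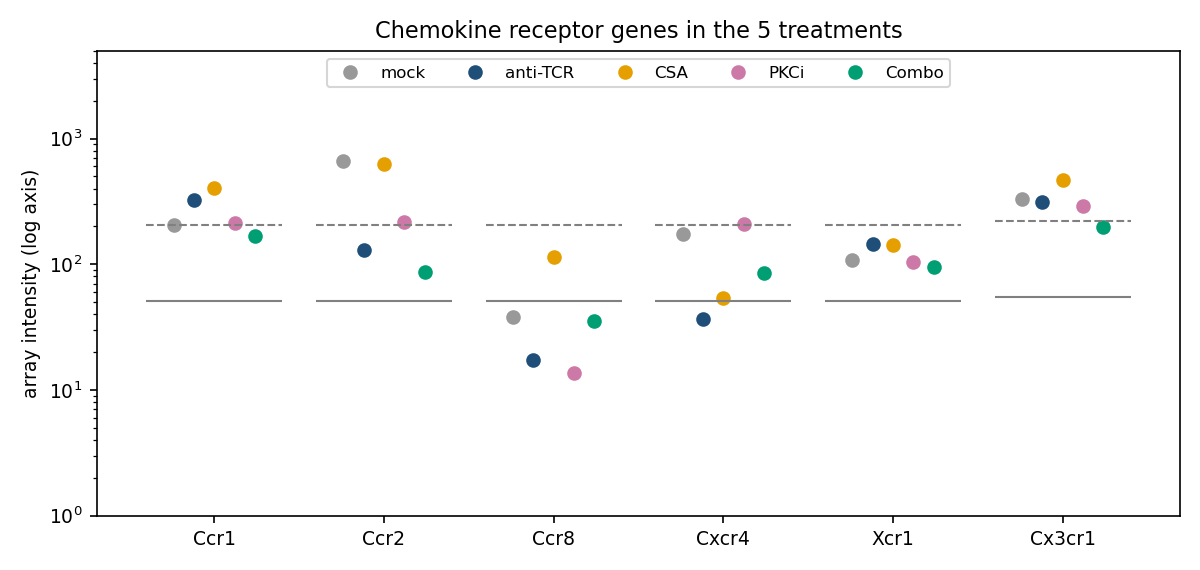
Array intensity (log axis) of 6 chemokine receptor genes in the 5 treatments, 1 array per point, with the floor (solid) and 4 times the floor (dashed) of each gene's chip type. Ccr2 is high with mock and CSA. Cxcr4 is highest with PKCi, just above the dashed line, and next with mock, below that line. Ccr8 and Xcr1 stay below the dashed line in all 5 treatments.

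Among 23 genes of chemokine receptor signalling on the arrays, 11 of the 21 that reached 4 times the floor changed in at least 1 of the 4 comparisons, against 36.3% of 6337 genes measured in at least 1. With anti-TCR alone 3 of 20 measured rose and 5 fell, where 11.4% and 13.9% of all genes measured did. The 2 regulators of G protein signalling that rose were Rgs16, from 120 to 1607 (13.4-fold), and Rgs3, from 480 to 2343 (4.88-fold). Both shorten signals from G protein-coupled receptors. A second probe set of Rgs16 gave a log2 ratio of 5.80, against 3.75 on the first, and a second one of Rgs3 gave 0.86, against 2.29. Rgs16 fell 16.3-fold with PKCi to 98.6, and read 1244 with CSA and 1844 with Combo; on the second probe set the values were 838 and 1077 against 2847 with anti-TCR alone. The kinase gene Grk5, which phosphorylates such receptors, rose 2.37-fold and fell 3.27-fold with CSA and 2.19-fold with PKCi. In the other direction Rgs10 fell 4.70-fold with anti-TCR alone and rose 2.17-fold with CSA and 3.21-fold with PKCi over it; its f-suffixed probe set gave log2 ratios of -1.41, 1.16 and -0.07, so the PKCi rise was not seen there. Rgs2 did not pass the limit with anti-TCR alone (log2 ratio -0.92) and rose 5.89-fold with CSA and 4.90-fold with PKCi. The f-suffixed probe set of Arrb1, an arrestin gene, rose 3.40-fold with PKCi, and its unsuffixed one (log2 ratio 0.87) did not reach 4 times the floor.

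The genes whose course was most like that of each member except Ccl5 were found by the root mean square difference of log2 values over the 5 treatments, each gene centred on its own mean. There were 2792 candidates outside the 6 genes, that reached 4 times the floor in some array and spanned at least 2-fold, which Ccl5 did not. Xcl1 and Ccl1 lay 0.20 apart, closer to each other than to any other candidate. For both, the nearest others were Mmd, Il13 and Ifih1, at 0.59, 0.65 and 0.65 from Xcl1 and 0.52, 0.63 and 0.56 from Ccl1. Il13, a T helper cytokine gene, read 10.5 with mock, 1005 with anti-TCR alone, 71.6 with CSA, 7.2 with PKCi and 193 with Combo, bright in the same array alone. For Ccl9 they were the transcription factor gene Pou2f2 (0.17), the cytokine gene Il5 (0.22) and Gm19531 (0.24, f-suffixed). For Ccl3 they were the transcription factor genes Egr2 (0.61) and Nr4a3 (0.76), and Rgs16 (0.86). Egr2 read 43.8, 3325, 582, 41.7 and 2116, so it shared the dark, bright, intermediate, dark and bright order of Ccl3 but was lower with Combo than with anti-TCR alone. Ccl4 had no close neighbour: Egr1 lay 0.97 from it, Rgs16 1.30 and Bcl6 1.32. Rgs16 was read here from 1 of its probe sets, with log2 ratios over anti-TCR alone of -0.37 with CSA and 0.20 with Combo. The other gave -1.765 and -1.40, so the likeness of Rgs16 to Ccl3 and Ccl4 rests on the probe set used. Egr1 read 86.9, 346, 675, 13.4 and 639, brighter with CSA and Combo than with anti-TCR alone, as Ccl4 was. Values at the floor are equal by construction, which draws genes with many dark arrays together, and 5 points per gene leave these distances a description.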

How the data were processed

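Array intensity was measured in A.E7 T cells on 15 arrays, 5 treatments on each of 3 chip types. The array intensities were used as deposited: linear, none below 0, with means, trimmed by 2% at each end, that differ between the 5 arrays by 0.232% on chip type A, 0.242% on B and 0.153% on C, as scaling by the authors would leave them. The scaling software: not given in the sources used here. Of 36701 probe sets 29131 carry 1 symbol in the platform annotation, of which 29044 matched a RefSeq gene identifier, with 0 symbols changed. Each gene was read from 1 probe set, that of highest mean intensity. Calls were tested on simulated data with less noise than the technical SD found here. The motif search was tested on a made-up string, for GGAAA only. The members, gene lists and rules were chosen with earlier results of these data known, and comparisons between inhibitor arms were added after seeing the data. Named beside the members are genes of the 3 pathway lists called in at least 1 comparison, at most 6 a list, and the 3 genes most like each member other than Ccl5; other examples were chosen after their values were seen. Python 3.11.15, pandas 2.3.3 and numpy 2.4.6 were used.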

Additional observations from a re-analysis of the deposited data

How the results depend on the processing

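Ratios of the 6 genes in 10 comparisons (60 in all) were recomputed under 7 alternatives: quantile normalization, median scaling, 0.5 times and 2 times the floor, the floor as pseudocount, averaging the probe sets of a gene, and leaving out suffixed probe sets. Of 420 values 358 moved by less than the technical SD and 62 moved further. Of 196 values whose main value was called, 0 reversed in sign and 195 kept the call. A reversal was looked for among these called values only. The exception was Ccl3 with Combo over anti-TCR alone with the floor as pseudocount. Part of this stability was fixed in advance. Each member is read from an unsuffixed probe set, so leaving out suffixed ones changed nothing, and averaging could change Ccl1 only. The minimum stayed at 4 times the main floor, so 0.5 or 2 times the floor could not change a 2-fold call. Of 80 counts of members (with a minimum of 8 times the floor, no filter on low values and a 3-fold limit added), 78 stayed within 1.5 times. Within that range, the count lowered by PKCi went from 5 to 4 with the minimum of 8 times the floor, which left out Ccl4. The count raised by Combo fell from 2 to 1 with the floor as pseudocount and to 1 with the 3-fold limit, both of which left Ccl4. The mean of both Ccl1 probe sets gave a log2 ratio of -1.82 for Combo over anti-TCR alone, against -4.28 on the unsuffixed one. With 0.5 and 2 times the floor, bounds such as that of Xcl1 over mock moved to 6.60 and 4.60 (log2), since a lower or higher floor sets them. No paired analysis was possible because each treatment has 1 array per chip type. Values near the floor limit what these arrays can order.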

Other observations

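The g-suffixed probe set of Ccl1 was compared with each member over the 5 treatments by the same centred root mean square difference, a comparison chosen after its values were seen. It lay 1.57 from the unsuffixed Ccl1 probe set, 1.54 from Xcl1, 1.44 from Ccl9, 1.31 from Ccl3, 1.29 from Ccl5 and 2.21 from Ccl4. By this measure it was no closer to the other probe set of Ccl1 than to the probe sets of 4 other members. The measure is not scaled for range, and the g-suffixed set spans less than the unsuffixed one. It therefore cannot show which gene's course the g-suffixed set follows. Both Ccl1 probe sets rose over mock and fell with CSA and PKCi. Ccl3 differed from Ccl4 by 1.75.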
